A study of Arabidopsis thaliana with 9 samples.

Results

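A set of 10 nuclear genes of carbon fixation was followed across 3 groups of Arabidopsis thaliana seedlings: the 4 genes of the Rubisco small subunit (RBCS1A, AT1G67090; RBCS1B, AT5G38430; RBCS2B, AT5G38420; RBCS3B, AT5G38410), Rubisco activase (RCA, AT2G39730), the A and B subunits of plastid glyceraldehyde 3-phosphate dehydrogenase (GAPA, AT3G26650, and GAPB, AT1G42970), phosphoribulokinase (PRK, AT1G32060), sedoheptulose bisphosphatase (SBPASE, AT3G55800) and the plastid fructose bisphosphatase (cpFBPase, AT3G54050, listed as HCEF1 in the RefSeq annotation). They were picked by locus name, and all 10 were found among the 27647 loci of the expression table. The first group was wild-type Col-0 grown with 2 µM Brz in the medium, a compound whose name the labels do not spell out. The second group, MIR394A OE, is labelled as overexpressing the microRNA gene MIR394A and got no Brz. The third was Col-0 without Brz, to which each of the other groups was compared. All seedlings had 4 days at 4 °C as seeds and then grew at 22 °C on diluted MS medium with 16 h of light a day. RNA came from whole seedlings at 5 days of age, with 3 libraries per group. The title puts the question as how miR394 acts on brassinosteroid signalling. The labels name neither the promoter of the overexpressed gene, nor the number of lines behind it, nor separate growths for the replicates. The p-values therefore measure the spread between libraries of a group, which may be technical in part.

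The Calvin cycle fixes carbon dioxide in the chloroplast stroma. Rubisco joins it to ribulose bisphosphate, glyceraldehyde 3-phosphate dehydrogenase reduces the product to triose phosphate, and the bisphosphatases and phosphoribulokinase rebuild ribulose bisphosphate from it. In plants the large subunit of Rubisco is encoded in the chloroplast genome (RBCL) and the small subunit by a nuclear gene family, whose transcripts are among the most abundant of green tissue. Activase removes sugar phosphates that block the active site of Rubisco, and the dehydrogenase, the kinase and the bisphosphatases are switched on in the light by thioredoxins and, for the dehydrogenase and the kinase, held inactive in the dark by the small protein CP12.

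The small subunit genes share sequence, which bears on how reads are assigned among them. The first 90 coding bases of each, read from RefSeq's TAIR10.1 genome, are given here 5′ to 3′, with capitals at the bases that differ from RBCS1A.
RBCS1A: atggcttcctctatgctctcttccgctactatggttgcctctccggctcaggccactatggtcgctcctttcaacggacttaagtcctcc
RBCS1B: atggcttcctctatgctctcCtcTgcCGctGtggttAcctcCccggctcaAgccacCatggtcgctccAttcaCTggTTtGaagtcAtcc
RBCS2B: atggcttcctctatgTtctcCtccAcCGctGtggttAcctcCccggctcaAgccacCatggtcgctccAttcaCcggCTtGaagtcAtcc
RBCS3B: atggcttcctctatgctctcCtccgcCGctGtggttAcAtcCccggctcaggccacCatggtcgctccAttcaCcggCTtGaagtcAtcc
In this stretch RBCS1B and RBCS2B each differed from RBCS1A at 16 bases, and RBCS3B at 14. RBCS1A lies alone on chromosome 1 (25048158 to 25049667, minus strand), whereas RBCS3B, RBCS2B and RBCS1B follow each other on the minus strand of chromosome 5, at 15376988 to 15378642, 15380907 to 15382071 and 15383167 to 15385320, with 2 other annotated genes between RBCS3B and RBCS2B. Over the whole coding sequence RBCS1A was 89.9 to 90.1% identical to each of the chromosome 5 genes, and those were 96.7 to 97.3% identical among themselves. Of all 50-base windows of the longest transcript, 1.48% in RBCS1A were also found in another RBCS gene, against 13.98% in RBCS1B, 18.3% in RBCS3B and 21.4% in RBCS2B. These shares depend on the length taken. By number, RBCS1B had the most shared windows (258 of 1845), before RBCS3B (212 of 1161) and RBCS2B (190 of 886). RBCS1B is annotated with a transcript of 840 bases beside that of 1894. How the authors' counting treated reads that match several genes is not given in the sources used here, so the split among the 3 chromosome 5 genes is less certain than the level of RBCS1A or of the family as a whole. GAPA and GAPB shared no such window with each other or with the second A-subunit gene, GAPA2.

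Every library held 21.7 to 21.9 M reads, as fitted from the steps of low values. On a principal component analysis of 17662 tested genes, the first component (61.9% of the variance) held the 3 Brz libraries on one side and the other 6 on the other. Brz replicate 1, at 23.8, stood nearer to those 6 (−30.7 to −18.2) than Brz replicates 2 and 3 (64.9 and 64.5). The second component (16.7%) set Brz replicate 1, MIR394A OE replicate 3 and Col-0 replicate 2 apart from the rest of their groups. Of the marker genes, all 5 of green tissue were abundant, with a summed level (in FPKM, fragments scaled by transcript length and library depth) of 37142 to 46517 FPKM in Brz libraries, 28962 to 30712 FPKM in MIR394A OE and 27695 to 32484 FPKM in Col-0. They did not move together in Brz libraries relative to Col-0. CAB1, which carried the higher sum at 22916 ± 3784 FPKM in Brz libraries and 12788 ± 1778 FPKM in Col-0, and LHCB3 were called higher, PSAD1 was called lower (log2 fold change −0.39, adjusted p = 0.016), and LHCA1 and PSBO1 were not called (limma). With the length trend described further on removed, CAB1 and PSAD1 kept their calls and LHCB3 did not (0.31, limma, adjusted p = 0.145). The 6 seed reserve markers summed to 136 to 180 FPKM in Brz libraries and 30.6 to 35.2 FPKM in Col-0. In MIR394A OE the sums were 81.9, 18.2 and 24.4 FPKM, replicate 1 standing apart. Most of the sum was ICL, at 132 ± 22.2 FPKM in Brz libraries and 26.9 ± 3.17 FPKM in Col-0. OLEO1 and CRC were too low to be tested. The 4 that were tested (OLEO2, CRA1, ICL and MLS) were all called higher in Brz libraries, OLEO2 and CRA1 at low levels (5.63 and 2.96 FPKM there). The 5 root markers summed to 66.3 to 84.9 FPKM in Brz libraries and 92.5 to 120 FPKM in Col-0, with NRT2-1 at or near 0 in all libraries. That lower sum rested on PHT1-1, a phosphate transporter, at 20.2 ± 3.54 FPKM in Brz libraries and 57.3 ± 8.45 FPKM in Col-0; without it the sums were 50.1 to 61.8 FPKM in Brz libraries and 31.3 to 56.6 FPKM in Col-0. The 3 epidermis markers summed to 442 to 475 FPKM in Brz libraries and 527 to 641 FPKM in Col-0, with FDH and ATML1 called lower and LTPG1 not called, and none called with the length trend described further on removed. LCR, the known target of miR394, was not lower in MIR394A OE, with 24.8 to 27.9 FPKM (mean 26.6) in MIR394A OE and 21.8 to 28.9 FPKM (mean 24.98) in Col-0. The MIR394A precursor was not analysed here, so the overexpression in these libraries was not checked. What part these differences between libraries have in the results was not tested. In whole seedlings, fewer green cells and less of an RNA per green cell cannot be told apart.

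In Col-0 the 10 genes ranked RBCS1A, RBCS3B, RBCS2B, RBCS1B, RCA, GAPA, GAPB, PRK, SBPASE and cpFBPase by FPKM, a level per transcript length. RBCS1A averaged 18178 ± 1514 FPKM in Col-0 and was the most abundant transcript of the table or close to it, with a rank of 1 to 4 in the 9 libraries. At the other end, cpFBPase averaged 314 ± 38.1 FPKM in Col-0 (SD, n = 3 each). The ranges of RBCS1B and RCA overlapped in Col-0, as did those of GAPA and GAPB; the other neighbours in the order were apart. The order of the means was the same in the other groups. In MIR394A OE the same pairs overlapped, and RBCS2B also overlapped RBCS1B. In Brz libraries, RBCS1A overlapped RBCS3B, RBCS2B overlapped RBCS1B, GAPA overlapped GAPB, and PRK, SBPASE and cpFBPase overlapped in turn, while RCA lay clear below RBCS1B. Together the 10 genes made up 5.18 to 6.14% of all FPKM in Brz libraries, 6.47 to 8.49% in MIR394A OE and 7.52 to 8.50% in Col-0. Counting error was small beside the spread between libraries, since the least covered value, cpFBPase in 1 library, stood for an estimated 7470 fragments, a counting error of 1.16%.

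**Figure D1:**
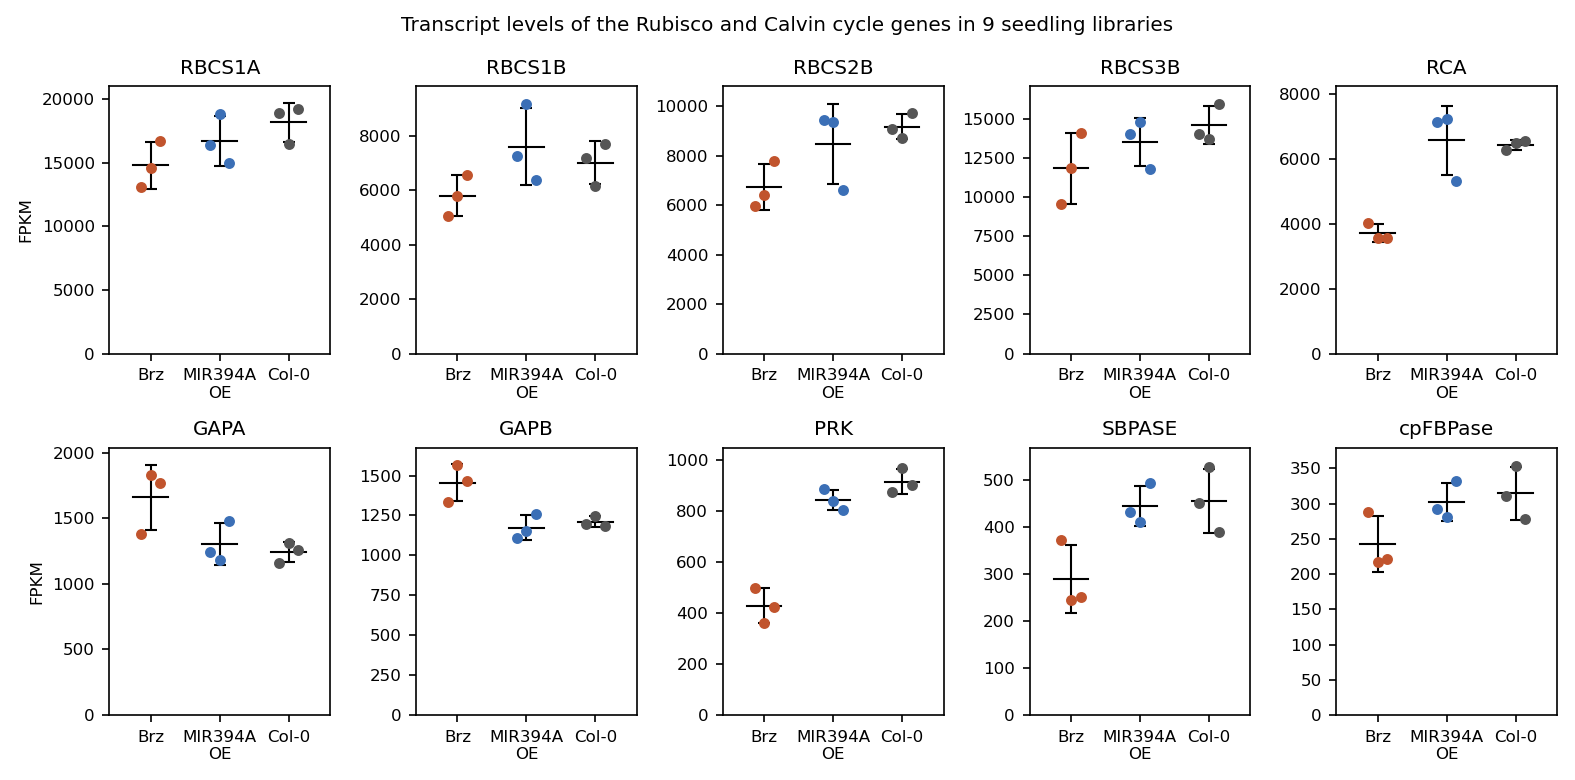
FPKM of each Rubisco and Calvin cycle gene in every library (points; vertical axis from 0, its own scale in each panel), with the mean and SD of each group. PRK lies at 363 to 499 FPKM in Brz-treated Col-0 and at 876 to 968 FPKM in Col-0, whereas the MIR394A OE points overlap those of Col-0 in all 10 panels.

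Growth on Brz was compared with untreated Col-0 first. PRK showed the largest difference, at 0.468 of its Col-0 mean, followed by RCA at 0.576 and SBPASE at 0.635. Of the small subunit genes RBCS2B fell and the other 3 did not pass the test, whereas GAPA rose. In all, 1 of the 10 genes rose, 4 fell and 5 did not pass the test (limma, adjusted p under 0.05), beside 41.9% of all tested genes called, 13.2% higher and 28.7% lower. The median log2 fold change was −0.35 over the 10 genes and −0.22 over all 17662. With libraries scaled by median ratios, which shifted the median of all genes by 0.23, 2 genes were called higher (GAPA and GAPB) and 2 lower (PRK and SBPASE). Over all 17662 tested genes 7915 were then called, 4318 higher and 3597 lower. The median log2 fold change over the 10 genes was −0.067 under this scaling. Groups did not overlap for 6 of the 10 genes, RBCS2B, RCA, PRK and SBPASE being lower and GAPA and GAPB higher in Brz libraries, beside 50.1% of all tested genes (32% lower and 18.1% higher).

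The small subunit, which surrounds the catalytic large subunit in the Rubisco holoenzyme, had log2 fold changes of −0.45 to −0.28 across its 4 genes, of which RBCS2B alone passed the test. These falls depended on the scaling. With median-ratio scaling RBCS1A was at −0.018, RBCS1B at 0.0046 and RBCS3B at −0.034. RBCS2B was then at −0.17 and did not pass either (limma, adjusted p = 0.64). RBCS1A was at 13076, 14584 and 16740 FPKM in Brz libraries, against 18904, 16437 and 19192 FPKM in Col-0. The highest Brz library thus lay just above the lowest Col-0 library, and the log2 fold change of −0.30 ± 0.13 (SE) did not pass the test (adjusted p = 0.078). RBCS3B was at 9550, 11872 and 14116 FPKM in Brz libraries and at 14073, 13735 and 15979 FPKM in Col-0, a log2 fold change of −0.32 ± 0.15 (adjusted p = 0.10). It overlapped between the groups through Brz replicate 3 and was called without that library (adjusted p = 0.046). RBCS1B had 5051, 5784 and 6562 FPKM in Brz libraries and 7193, 6160 and 7703 FPKM in Col-0, with overlap and a log2 fold change of −0.28 ± 0.15 (adjusted p = 0.16). RBCS2B had 5985, 6418 and 7795 FPKM in Brz libraries, against 9067, 8731 and 9724 FPKM in Col-0, without overlap. It fell by 0.45 ± 0.15 on the log2 scale (adjusted p = 0.031), a call that was lost when Col-0 replicate 1 or 3 or Brz replicate 1 or 2 was left out (adjusted p = 0.065 to 0.0996). In Brz libraries all 4 genes were lowest in replicate 1 and highest in replicate 3, so the genes of the family varied together within the group. Their summed level was 39178 ± 5793 FPKM in Brz libraries and 48965 ± 3774 FPKM in Col-0 (SD, n = 3 each), with overlap through Brz replicate 3 and Col-0 replicate 2.

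Activase, on chromosome 2 (16570746 to 16573692, minus strand, 7 exons), was at 4026, 3549 and 3548 FPKM in Brz libraries, against 6265, 6484 and 6549 FPKM in Col-0. The groups were far apart, with every Brz library below every Col-0 library. RCA fell by 0.80 ± 0.13 on the log2 scale (adjusted p = 0.0011), and was called with each of the 9 libraries left out in turn. Under median-ratio scaling it did not pass (−0.52, adjusted p = 0.090), nor did it once the length trend described further on was taken out (−0.45, adjusted p = 0.074).

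The dehydrogenase genes differed in the other direction. GAPA (chromosome 3, 9794862 to 9797045, plus strand) was at 1377, 1830 and 1768 FPKM in Brz libraries, against 1161, 1309 and 1259 FPKM in Col-0. All Brz values were above all Col-0 values, though Brz replicate 1 was close to them. GAPA rose by 0.41 ± 0.14 on the log2 scale (adjusted p = 0.031), and lost the call without Col-0 replicate 1 or 3 or Brz replicate 2 or 3 (adjusted p = 0.061 to 0.131). GAPB (chromosome 1, 16127353 to 16129895, plus strand) was at 1334, 1566 and 1467 FPKM in Brz libraries and at 1200, 1249 and 1184 FPKM in Col-0, again without overlap. Its log2 fold change of 0.26 ± 0.11 did not pass the test (adjusted p = 0.066), but did without Brz replicate 1 (adjusted p = 0.021) or without MIR394A OE replicate 3 (adjusted p = 0.049), which enters through the shared estimate of the spread.

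Among the enzymes that regenerate ribulose bisphosphate, PRK and SBPASE fell in Brz libraries and cpFBPase did not pass the test. PRK (chromosome 1, 11532199 to 11534639, plus strand), which makes ribulose bisphosphate itself, was at 499, 363 and 423 FPKM in Brz libraries, against 876, 968 and 901 FPKM in Col-0. No Brz library came near the lowest Col-0 library, and PRK fell by 1.10 ± 0.13 on the log2 scale (adjusted p = 4.4e-04), called with each library left out in turn. SBPASE (chromosome 3, 20709294 to 20711640, plus strand) was at 372, 245 and 252 FPKM in Brz libraries and at 451, 526 and 390 FPKM in Col-0. Brz replicate 1 was close to Col-0 replicate 3, with no overlap, and SBPASE fell by 0.67 ± 0.17 (adjusted p = 0.0095), a call lost without Brz replicate 2 (adjusted p = 0.052). The plastid fructose bisphosphatase (chromosome 3, 20016837 to 20018822, plus strand) was at 288, 217 and 221 FPKM in Brz libraries, against 311, 354 and 278 FPKM in Col-0. It overlapped through Brz replicate 1, and its log2 fold change of −0.38 ± 0.14 lay on the threshold (adjusted p = 0.0501). It was called without Brz replicate 1 (adjusted p = 0.010), MIR394A OE replicate 3 (adjusted p = 0.040) or Col-0 replicate 3 (adjusted p = 0.041). For RCA, PRK and both bisphosphatases Brz replicate 1 was the highest of its group, and for the RBCS and GAP genes it was the lowest.

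Differences between Brz libraries and Col-0 followed transcript length over all genes. By quintiles of the longest spliced transcript, the median log2 fold change was 0.38 in the shortest (up to 1108 bases), then 0.04, −0.20 and −0.41, and −0.72 in the longest (2432 bases and over). RBCS2B, with 935 bases, stood in the shortest quintile and went against its median. RBCS1A and RBCS3B stood in the second, GAPA, GAPB, SBPASE and cpFBPase in the third, and RBCS1B, RCA and PRK in the fourth. After a smooth length trend was removed from each library, 2 of the 10 genes were higher (GAPA and GAPB) and 3 lower (RBCS2B, PRK and SBPASE), beside 23.6% of all tested genes called, 10.4% lower and 13.2% higher. PRK then stood at −0.81 (adjusted p = 0.0027), SBPASE at −0.45 (adjusted p = 0.025) and RBCS2B at −0.77 (adjusted p = 0.035). GAPA stood at 0.63 (adjusted p = 0.034) and GAPB at 0.54 (adjusted p = 0.030), while RCA, at −0.45, no longer passed (adjusted p = 0.074). RBCS1B is annotated with transcripts of 840 and 1894 bases, and its log2 fold change was 0.02 with the longer and −0.58 with the shorter as its length. With the shortest transcript of every gene, RBCS2B was at −0.69 and also lost the call (adjusted p = 0.052). The part of the length trend in these differences was not tested further.

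**Figure D2:**
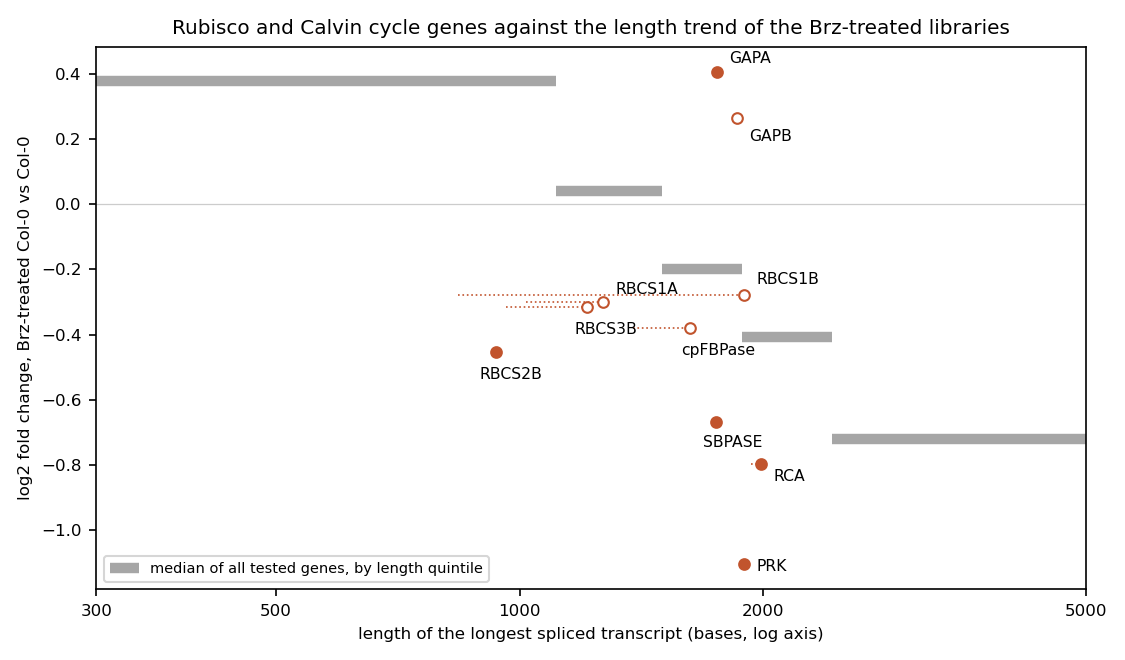
Log2 fold change of each gene in Brz-treated Col-0 over Col-0 (vertical axis) against the length of its longest spliced transcript in bases (log axis); filled points passed the test, dotted lines reach to the shortest annotated transcript, and grey bars are the medians of all tested genes by length quintile (the first begins left of the axis). GAPA, GAPB and RBCS1B lie above the bar at the length of their longest transcript. RBCS1A, RBCS2B, RBCS3B, RCA, PRK, SBPASE and cpFBPase lie below it.

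The sequence before the annotated gene start is shown for the 5 genes that passed the test. Each is 250 bases of TAIR10.1 from RefSeq, written 5′ to 3′ on the strand of the gene; capitals mark the I-box core GATAAG and the G-box CACGTG, elements known from light-regulated promoters, found on either strand.
GAPA (chr3:9794612-9794861, plus strand): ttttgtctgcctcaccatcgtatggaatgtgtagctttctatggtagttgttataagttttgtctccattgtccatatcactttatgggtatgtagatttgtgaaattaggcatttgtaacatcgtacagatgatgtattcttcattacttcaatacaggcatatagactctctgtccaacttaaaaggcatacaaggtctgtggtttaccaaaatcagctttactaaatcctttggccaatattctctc
RBCS2B (chr5:15382072-15382321, minus strand): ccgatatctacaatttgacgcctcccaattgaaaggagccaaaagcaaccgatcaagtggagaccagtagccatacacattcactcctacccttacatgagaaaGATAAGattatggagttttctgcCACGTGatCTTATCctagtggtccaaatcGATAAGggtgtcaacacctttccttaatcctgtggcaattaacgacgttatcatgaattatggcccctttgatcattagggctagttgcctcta
RCA (chr2:16573693-16573942, minus strand): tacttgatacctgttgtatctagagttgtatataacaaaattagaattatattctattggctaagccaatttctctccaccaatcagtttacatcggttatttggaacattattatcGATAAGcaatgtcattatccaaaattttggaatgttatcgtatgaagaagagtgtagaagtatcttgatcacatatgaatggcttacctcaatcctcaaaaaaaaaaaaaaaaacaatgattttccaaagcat
PRK (chr1:11531949-11532198, plus strand): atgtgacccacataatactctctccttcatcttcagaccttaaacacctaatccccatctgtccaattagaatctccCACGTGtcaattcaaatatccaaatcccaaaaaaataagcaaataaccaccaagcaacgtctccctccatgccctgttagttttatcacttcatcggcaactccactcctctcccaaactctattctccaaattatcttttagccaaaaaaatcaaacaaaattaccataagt
SBPASE (chr3:20709044-20709293, plus strand): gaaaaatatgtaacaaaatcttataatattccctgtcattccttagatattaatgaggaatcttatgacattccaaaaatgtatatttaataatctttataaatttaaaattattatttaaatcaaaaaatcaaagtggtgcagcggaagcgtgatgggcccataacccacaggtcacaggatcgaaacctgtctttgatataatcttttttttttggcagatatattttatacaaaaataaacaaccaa
RBCS2B held 3 I-box cores, 146, 115 and 94 bases before the gene start, and 1 G-box at 123 bases, in a window that ends 93 bases before the coding sequence. RCA held 1 I-box core at 133 bases and PRK 1 G-box at 173 bases. Neither motif was in the windows of SBPASE and GAPA. Among all 10 genes, 3 held an I-box core (RBCS2B, RCA and cpFBPase) and 3 a G-box (RBCS2B, PRK and cpFBPase), against 12.3% and 6.49% of 27443 windows of the same length. Of the genes that did not pass the test, cpFBPase thus held both motifs, and RBCS1A, RBCS1B, RBCS3B and GAPB held neither. The BRRE, an element bound by transcription factors of the brassinosteroid pathway, was searched as CGTGTG or CGTGCG on both strands and was in none of the 10 windows and in 6.71% of all windows. The annotated starts of RBCS1A and RBCS3B lie 418 and 336 bases before their coding sequence. Those of PRK, GAPA, RCA and SBPASE lie 469, 364, 347 and 346 bases before it. The windows of these genes are thus farther from the coding sequence than that of RBCS2B. Bases between the annotated start and the coding sequence were not searched. Whether any of these elements has a part in the differences between groups was not tested.

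MIR394A OE was compared with Col-0 next. None of the 10 genes passed the test, beside 0.034% of all tested genes (6 of 17662, all lower; 401 had an unadjusted p under 0.05). Log2 fold changes ran between −0.13 (RBCS2B) and 0.10 (RBCS1B), and the libraries of the groups overlapped for all 10 genes, beside 5.77% of all tested genes whose groups were apart (2.97% higher and 2.8% lower). After removal of the length trend none of the 10 passed either, beside 0.0283% of all tested genes. The median was −0.05 over the 10 genes and −0.01 over all.

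PRK was at 885, 840 and 804 FPKM in MIR394A OE libraries and at 876, 968 and 901 FPKM in Col-0, a log2 fold change with a 95% interval from −0.39 to 0.16. RCA was at 7145, 7228 and 5325 FPKM in MIR394A OE and at 6265, 6484 and 6549 FPKM in Col-0, with an interval from −0.26 to 0.30. MIR394A OE replicate 3 stood below all Col-0 libraries for RCA, and the other replicates of the group above all of them. RBCS1A was at 16400, 18842 and 14953 FPKM in MIR394A OE, against 18904, 16437 and 19192 FPKM in Col-0 (interval −0.40 to 0.16). The same replicate 3 was the lowest of its group for all 4 RBCS genes, RCA and PRK, and the highest for GAPA, GAPB and both bisphosphatases. Among the Col-0 libraries, replicate 2 was the lowest for the 4 RBCS genes and the highest for GAPA, GAPB, PRK and both bisphosphatases. GAPA was at 1243, 1182 and 1481 FPKM in MIR394A OE (interval −0.23 to 0.36) and GAPB at 1108, 1154 and 1260 FPKM (interval −0.28 to 0.19). SBPASE was at 431, 410 and 493 FPKM in MIR394A OE and cpFBPase at 293, 281 and 332 FPKM, all within the Col-0 ranges. The widest intervals were those of SBPASE (−0.40 to 0.34), RBCS2B (−0.46 to 0.20) and RBCS1B (−0.23 to 0.43), which leave differences of that size possible. The intervals are not adjusted for the number of genes tested, whereas the calls are. For any of these genes the test could thus miss differences larger than its interval spans.

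**Figure D3:**
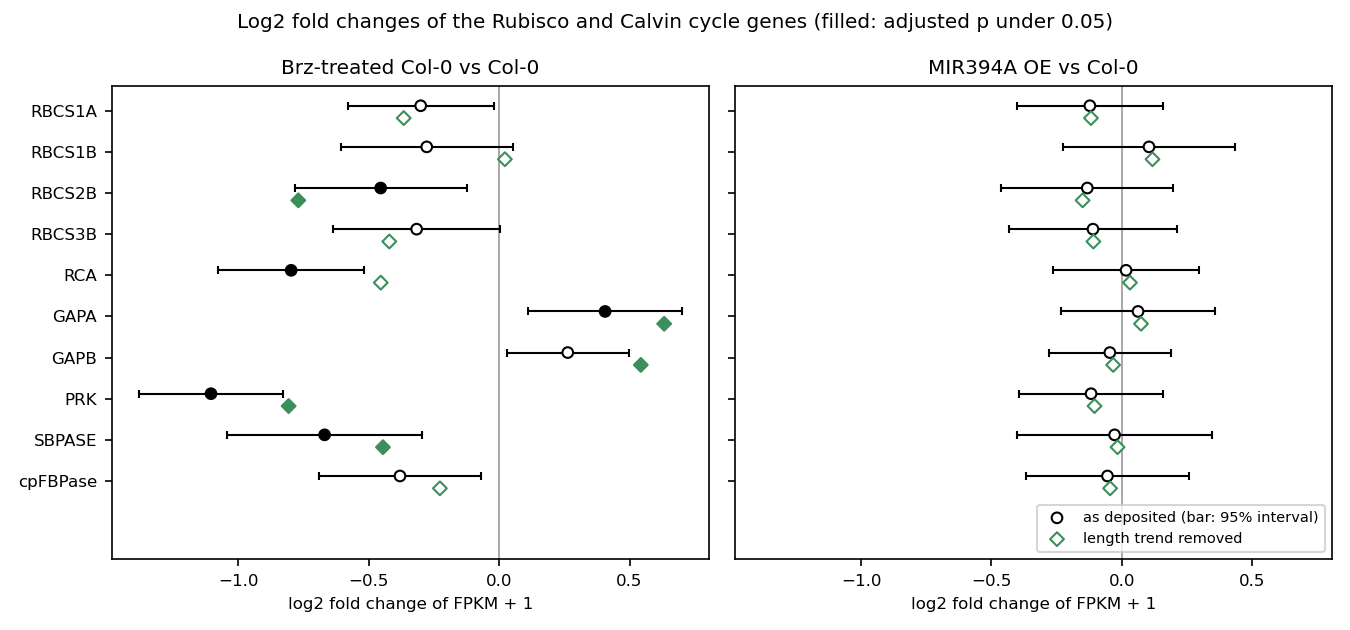
Log2 fold changes of the 10 genes in Brz-treated Col-0 over Col-0 (left) and in MIR394A OE over Col-0 (right), with 95% intervals (circles) and after removal of the length trend (diamonds); filled symbols passed the test. On the left 5 circles are filled, with PRK farthest from 0 at −1.10; on the right none is, and all 10 intervals include 0.

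The groups were also compared with each other, since each had been set against the same 3 Col-0 libraries. In MIR394A OE relative to Brz-treated Col-0, RCA, PRK and SBPASE were higher and GAPB was lower, 4 of the 10 genes, beside 37.8% of all tested genes called, 25.8% higher and 12% lower. After removal of the length trend PRK and SBPASE were higher and GAPB lower, beside 20.6% of all tested genes called, 9.35% higher and 11.3% lower. PRK was higher by 0.99 ± 0.13 on the log2 scale (adjusted p = 6.3e-04), with 804 to 885 FPKM in MIR394A OE and 363 to 499 FPKM in Brz libraries. RCA was higher by 0.81 ± 0.13 (adjusted p = 0.0013), with 5325 to 7228 FPKM in MIR394A OE and 3548 to 4026 FPKM in Brz libraries. Both kept their calls with each library left out in turn, RCA losing it when the length trend was removed (adjusted p = 0.065) and with median-ratio scaling (adjusted p = 0.073). SBPASE was higher by 0.64 ± 0.17 (adjusted p = 0.013), and lost the call without Brz replicate 2 (adjusted p = 0.067) or 3 (adjusted p = 0.061). GAPB was lower by 0.31 (SE 0.11, adjusted p = 0.039), with 1108 to 1260 FPKM in MIR394A OE and 1334 to 1566 FPKM in Brz libraries. Its call was lost with any of 7 libraries left out, MIR394A OE replicate 3 and Brz replicate 1 being the exceptions (adjusted p = 0.052 to 0.154). These 4 genes were also those whose groups did not overlap, beside 46.5% of all tested genes (30.4% higher and 16.1% lower). The small subunit genes did not pass: their log2 fold changes were 0.18 for RBCS1A, 0.21 for RBCS3B, 0.32 for RBCS2B and 0.38 for RBCS1B, and their ranges overlapped. RBCS1B and RBCS2B were called without MIR394A OE replicate 3 (adjusted p = 0.025 and 0.012). GAPA was at −0.34 (adjusted p = 0.063) and cpFBPase at 0.32 (adjusted p = 0.091). GAPA was called without MIR394A OE replicate 3 (adjusted p = 0.026) or Brz replicate 1 (adjusted p = 0.011), and cpFBPase without Brz replicate 1 (adjusted p = 0.018).

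Ratios between genes within a library do not depend on its scaling, but where the genes differ in transcript length they do depend on the length trend. Activase stood at 11.96, 9.18 and 7.85 FPKM per 100 FPKM of summed RBCS in Brz libraries, at 15.2, 13.9 and 13.4 in MIR394A OE, and at 12.7, 14.4 and 12.5 in Col-0. The Brz libraries were below all others, replicate 1 by little. The mean log2 ratio of RCA to RBCS was −3.39 ± 0.31 in Brz libraries and −2.93 ± 0.11 in Col-0 (SD, n = 3 each), a ratio 0.723 times that of Col-0. With 3 libraries against 3 a two-sided exact permutation test cannot go below p = 0.1, which is the value it gave here (0.45 after adjustment over 9 tests of ratios). MIR394A OE, at −2.82 ± 0.09, did not overlap Brz libraries (exact permutation p = 0.1) and overlapped Col-0 (exact permutation p = 0.3). With the length trend removed the gap between Brz libraries and Col-0 was smaller: the log2 ratio was −3.13 ± 0.19 in Brz libraries and −3.07 ± 0.13 in Col-0, 0.959 times that of Col-0, with overlap (exact permutation p = 0.7, n = 3 each). With the shortest transcripts as lengths it turned round, to −3.003 ± 0.14 in Brz libraries and −3.134 ± 0.15 in Col-0 (1.10 times, exact permutation p = 0.3, n = 3 each). MIR394A OE also overlapped Brz libraries with either length. RBCS1A made up 37.9 ± 0.92% of summed RBCS FPKM in Brz libraries, 36.2 ± 1.41% in MIR394A OE and 37.1 ± 1.10% in Col-0, with overlap throughout (exact permutation p = 0.2 to 0.5, n = 3 each). With the trend on the shortest transcripts removed, the share was 38.1 to 39.1% in Brz libraries and 36.0 to 38.0% in Col-0, without overlap (exact permutation p = 0.1, n = 3 each). The log2 ratio of GAPB to GAPA was −0.18 ± 0.12 in Brz libraries, −0.14 ± 0.10 in MIR394A OE and −0.04 ± 0.07 in Col-0, and the groups overlapped (exact permutation p = 0.3 to 0.6, n = 3 each).

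**Figure D4:**
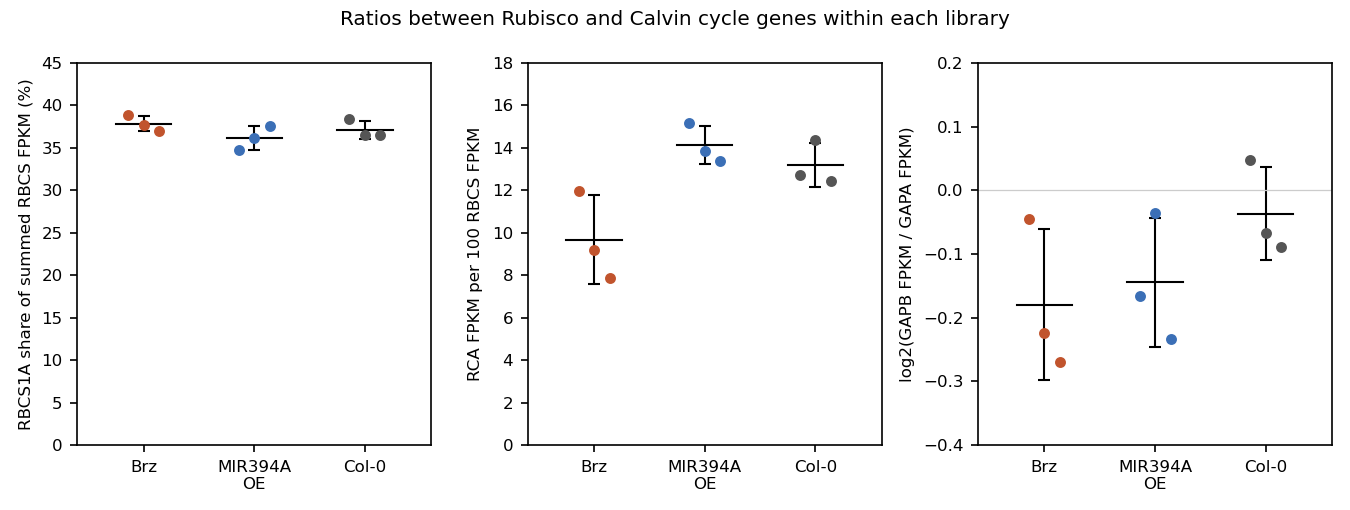
Ratios between genes in every library (points) with the mean and SD of each group: RBCS1A as a percentage of summed RBCS FPKM (left), RCA per 100 summed RBCS FPKM (middle) and the log2 ratio of GAPB to GAPA (right). The RBCS1A share stays between 34.8 and 38.8% in all 9 libraries, while the RCA values of Brz-treated Col-0, 7.85 to 11.96, lie below those of MIR394A OE and Col-0; the values drawn keep the length trend, without which the RCA ratios overlap.

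The rest of the pathway was described from lists of its genes. Of 13 other Calvin cycle genes, 4 rose in Brz libraries relative to Col-0, 3 fell and 6 did not pass the test, beside 41.9% of all tested genes called (13.2% higher and 28.7% lower), with a median log2 fold change of −0.05 and −0.22 over all. With the length trend removed, 3 were higher and 1 lower, beside 23.6% of all tested genes called. RBCL, among the 3 higher, had no annotated length here. It was shifted only by the median of the trend in each library, not corrected for its own length. TKL1, a plastid transketolase, was at 277 ± 24.5 FPKM in Brz libraries and 586 ± 18.3 FPKM in Col-0 (SD, n = 3 each), a fall of 1.08 on the log2 scale (adjusted p = 4.4e-04) that did not pass with the length trend removed (−0.37, adjusted p = 0.089). RBCL rose by 1.07 (adjusted p = 0.0023) at low levels, with 10.3 ± 1.21 FPKM in Brz libraries and 4.48 ± 1.30 FPKM in Col-0. Chloroplast transcripts are mostly not polyadenylated, and the labels describe mRNA libraries, so these levels cannot be set against those of the nuclear genes. Whether the libraries of each group kept such RNA to the same extent was not tested. The second plastid fructose bisphosphatase gene (cpFBPII) fell by 0.64 to 8.84 ± 1.87 FPKM in Brz libraries, against 14.2 ± 1.56 FPKM in Col-0 (adjusted p = 0.011).

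Of 10 genes for folding and assembly of Rubisco, 4 rose in Brz libraries, 4 fell and 2 did not pass, beside 13.2% of all tested genes higher and 28.7% lower, with a median log2 fold change of −0.10. With the length trend removed 4 were higher and 1 lower, beside 13.2% and 10.4% of all tested genes. BSD2, a late assembly chaperone, rose by 0.81 (adjusted p = 0.0038) and CPN20, a co-chaperonin, by 0.61 (adjusted p = 0.0073). BSD2 was at 250 ± 12.8 FPKM in Brz libraries and 143 ± 18.3 FPKM in Col-0.

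Of 13 genes for the redox control of the cycle, 3 rose in Brz libraries, 2 fell and 8 did not pass, a share near the 41.9% of all tested genes called, with a median log2 fold change of −0.02. With the length trend removed 2 were higher and 5 lower, beside 23.6% of all tested genes called. Thioredoxin gene TRXM4 rose by 0.97 (adjusted p = 8.9e-04) to 393 ± 55.5 FPKM in Brz libraries, against 199 ± 16.4 FPKM in Col-0. NTRC, a plastid thioredoxin reductase with its own thioredoxin domain, fell by 1.21 (adjusted p = 0.0014) to 32.3 ± 12.4 FPKM in Brz libraries, against 72.8 ± 6.63 FPKM in Col-0. CP12-1, which binds the dehydrogenase and PRK, rose by 0.94 (adjusted p = 0.0018) to 1470 ± 313 FPKM in Brz libraries, against 758 ± 101 FPKM in Col-0. All 3 passed with the length trend removed (adjusted p = 0.0071, 0.0036 and 0.028).

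In MIR394A OE no gene of these 3 lists was called against Col-0 (limma), nor had one an unadjusted p under 0.05. The smallest p-values were those of RBCL, at 6.17 ± 0.89 FPKM in MIR394A OE and 4.48 ± 1.30 FPKM in Col-0, of CPN60B2, a chaperonin subunit, at 123 ± 4.78 FPKM in MIR394A OE and 107 ± 5.43 FPKM in Col-0, and of TRXM3, a thioredoxin, at 26.6 ± 2.66 FPKM in MIR394A OE and 30.5 ± 3.23 FPKM in Col-0 (SD, n = 3 each, adjusted p = 1 for all).

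**Figure D5:**
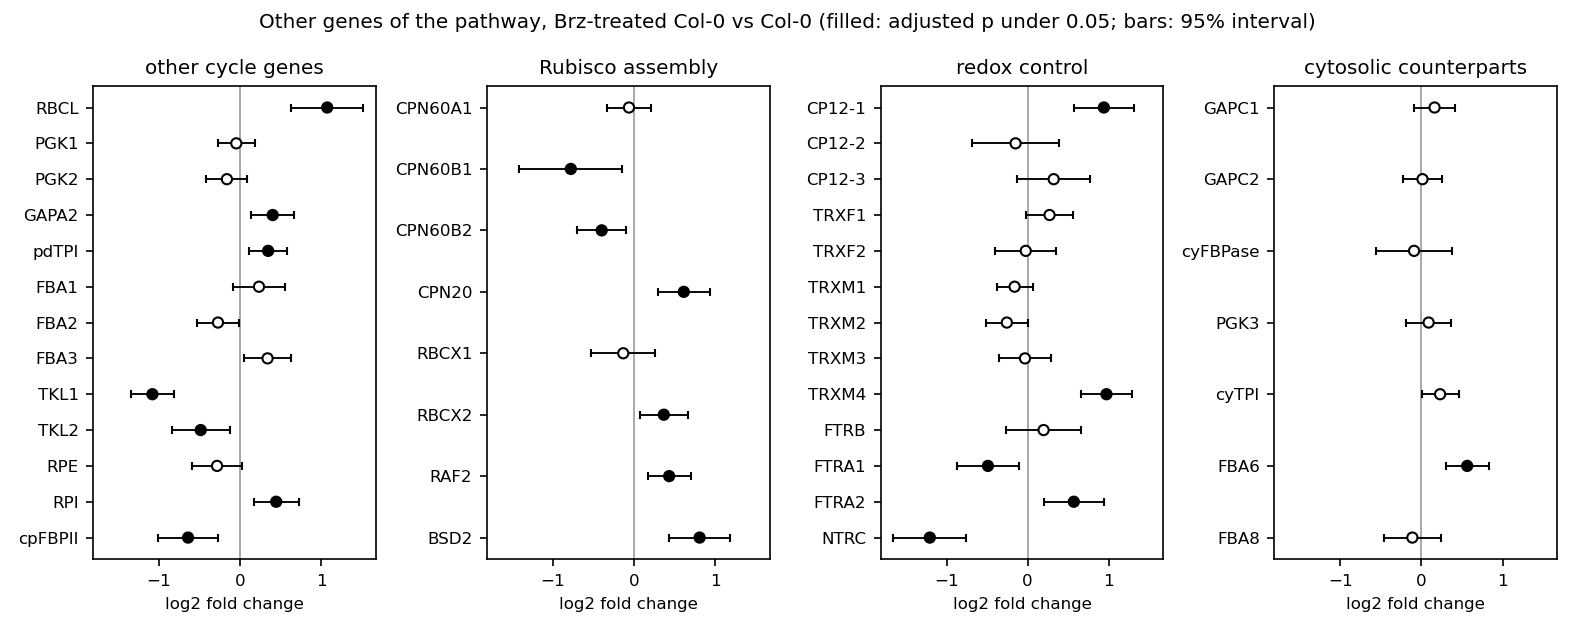
Log2 fold changes with 95% intervals in Brz-treated Col-0 over Col-0 for other Calvin cycle, Rubisco assembly, redox control and cytosolic genes, 1 panel a list (filled where a gene passed the test; 8 of the 10 assembly genes are drawn). The first 3 panels hold filled points on both sides of 0, NTRC at −1.21 and TKL1 at −1.08 lying farthest to the negative side, while in the cytosolic panel FBA6, at 0.56, alone is filled.

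The genes with patterns most like that of the small subunit family were sought among 11035 genes with a mean of at least 5 FPKM, by the root mean square difference of centred log2 values over the 9 libraries, where the mean RBCS profile itself had a size of 0.21. They were EMB3136 (0.04), THI1 of thiamine synthesis (0.05), FBA2 (0.06), RABE1b (0.07) and COPT5, a copper transporter (0.07). FBA2, a plastid aldolase of the cycle, averaged 2991 ± 260 FPKM in Brz libraries and 3613 ± 256 FPKM in Col-0, and its difference did not pass the test (adjusted p = 0.079). For the mean profile of the other 6 genes, of size 0.18, the closest were ERH3, BB, AT4G30900, AT1G27480 and MST1, all at 0.05 to 0.06. That mean joins genes that differed from Col-0 in both directions in Brz libraries, from −1.10 for PRK to 0.41 for GAPA. A gene close to the mean need not resemble any of the 6. Likeness over these 9 libraries takes in the libraries that stood apart from their groups.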

How the data were processed

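Libraries were made from total RNA of whole seedlings with an Illumina mRNA kit, per the labels' protocols. The authors deposited FPKM values (fragments per kilobase of transcript and per 1 M reads), per the file headers. The submitters' processing notes name Bowtie2 and HISAT without role or version; build and annotation are not given there. Of 27647 loci, 24331 had values. A limma model (3.58.1, R 4.3.3; intensity trend) was fitted to log2(FPKM + 1) of 17662 genes with at least 1 FPKM in at least 3 libraries, over all 9 libraries with 6 residual degrees of freedom. P-values were two-sided and adjusted by Benjamini-Hochberg over all tested genes, with calls under 0.05. Such fold changes understate changes of low genes. Ratios were tested by exact permutation. Depth came from the steps of low FPKM values, of which 86.7 to 88.9% lay within 0.1 of a whole read. Lengths, positions and sequences came from RefSeq TAIR10.1 (27438 loci matched), and the length trend was a loess of span 0.5 per library. The fit was tested on simulated data.

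The 10 genes and the lists were chosen with earlier results of these data known. From each list the 3 called genes of smallest p against Col-0 are named, or the 1 of smallest p where none was called, and always RBCL. A result of the assembly list that this rule names is not reported here. Alternatives left out the intensity trend, the filter, the third group or each library in turn, or took a 5 FPKM filter, other pseudocounts (0.1 or 5), median-ratio scaling, replicate blocks or the length trend removed. The shortest transcript as length, ratios with the length trend removed, and 3 libraries left out together, were added after seeing the data.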

Additional observations from a re-analysis of the deposited data

How the results depend on the processing

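In Brz-treated Col-0 against Col-0, 5 of the 10 genes were called; 3 were without the intensity trend, 3 without a filter, and 2 to 7 with a library left out (2 without Brz replicate 2, 3 without Col-0 replicate 1). Over all genes the 7398 calls became 4164 with the length trend removed, 4229 with it taken from the shortest transcripts, and 4146 to 9455 with a library left out. RBCS1B changed sign to 0.0046 with median-ratio scaling and to 0.022 with the length trend removed. In MIR394A OE against Col-0, none of the 10 genes was called under any alternative run (0 to 0 with a library left out), while the 6 calls over all genes became 3 without a filter, 3 under the replicate block, 3 with only the 2 groups compared and 3 to 6 with a library left out. Values near 0 changed sign with a library left out, over −0.039 to 0.22 for RBCS1B, −0.22 to 0.038 for RBCS2B, −0.060 to 0.16 for RCA, −0.034 to 0.13 for GAPA, −0.13 to 0.081 for SBPASE and −0.14 to 0.033 for cpFBPase. With the 3 libraries that stood apart on the second component left out together, RCA was at 0.17, RBCS2B at 0.0027 and SBPASE at 0.0052 in this comparison, and 10204 genes were called in Brz-treated Col-0 against Col-0. In MIR394A OE against Brz-treated Col-0, the 4 calls became 2 to 7 with a library left out and 8 without those 3 libraries. The 6674 calls over all genes became 3642 with the length trend removed, 3748 with it taken from the shortest transcripts, 3553 to 8972 with a library left out and 10127 without the 3 libraries. With median-ratio scaling RBCS1A was at −0.079 and RBCS3B at −0.051. The log2 ratio of GAPB to GAPA ran from −0.020 to 0.10 with a library left out, and was −0.017 and −0.015 with the length trend on the longest or shortest transcripts removed. With the trend on the shortest, the difference in the log2 ratio of RCA to RBCS became 0.13 in Brz-treated Col-0 against Col-0 and −0.0052 in MIR394A OE against Brz-treated Col-0. The causes were not tested.

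Replicate numbers did not pair the libraries: deviations of libraries with the same number correlated at −0.64 to 0.153, and 1 of 9 libraries correlated best with its own number. With the replicate block, RBCS2B lost its call in Brz-treated Col-0 against Col-0 (adjusted p = 0.069) and GAPB in MIR394A OE against Brz-treated Col-0 (adjusted p = 0.085).

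With 3 libraries a group, RBCS3B passed or missed the threshold by 1 library (log2 fold changes of −0.45 to −0.17). FPKM hold no counts, so counting error was estimated from fitted depth, and the authors' assignment of reads shared by RBCS genes is not known here.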

Other observations

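Cytosolic counterparts of the plastid enzymes, which serve glycolysis and sucrose synthesis, formed a further list of 7 genes. In Brz-treated Col-0 against Col-0, 1 rose, none fell and 6 did not pass the test (limma), beside 41.9% of all tested genes called (13.2% higher and 28.7% lower), with a median log2 fold change of 0.09. With the length trend removed, 2 were higher and none lower, beside 23.6% of all tested genes called. FBA6, a cytosolic aldolase, rose by 0.56 (adjusted p = 0.0044) and was at 191 ± 18.1 FPKM in Brz libraries and 129 ± 9.45 FPKM in Col-0 (SD, n = 3 each). Cytosolic fructose bisphosphatase was at 67.7 ± 8.95 FPKM in Brz libraries and 72.9 ± 16.9 FPKM in Col-0. In MIR394A OE none of the 7 was called against Col-0, with GAPC2, a cytosolic dehydrogenase, having the smallest p at 1433 ± 117 FPKM in MIR394A OE and 1229 ± 112 FPKM in Col-0 (adjusted p = 1).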
